A study of Mus musculus with 6 samples.

Results

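The MYC family and its antagonists were examined in the mouse uterus at gestation day (GD) 3.5, just before the embryo attaches, with and without the transcription factor SOX17 in the uterine epithelium. The family was taken as a fixed list of 8 genes, Myc, Mycn, Max, Mxd1, Mxd3, Mxd4, Mxi1 and Mnt, out of 20145 genes that could be named on the array. The list was chosen by role in the pathway with the signal differences between these same 6 arrays already known, so the values of its members are given as a description with no test. All 8 genes were on the array, on 10 probes. Mxd1 and Mxd4 had 2 probes each and the other 6 genes had 1 probe each. Of the 8, 7 were bright enough to enter the comparison, which covered 14847 genes. Mxi1 was not.

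The arrays were one-colour Agilent arrays, with 3 mice of each of 2 genotypes: littermate controls carrying conditional Sox17 alleles (Sox17f/f, labelled WT) and Sox17ed/ed mice, in which LtfiCre, a Cre recombinase expressed from the lactotransferrin locus in uterine epithelium from puberty onwards, also deletes Sox17. Females were mated at 8-10 weeks of age and uteri were taken 3 days after the post-coital plug, with the embryos flushed out. Both genotypes were therefore pregnant and carried the floxed alleles, and they differed in the Cre. RNA came from whole uterus, so epithelium, stroma, muscle and vessels were measured together.

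MYC and MYCN are basic helix-loop-helix transcription factors that bind DNA only as a pair with MAX, at an E-box motif, and activate genes of ribosome production, metabolism and cell division. MXD1, MXD3, MXD4, MXI1 and MNT compete for MAX at the same motif and recruit SIN3 corepressor complexes, so the balance of the groups sets the output of shared target genes. In the rodent uterus, Myc is one of the early genes induced by estrogen in the epithelium, and expression of MYC proteins accompanies epithelial and stromal proliferation around implantation.

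The E-box of the family, CACGTG, which reads the same on both strands, was searched for in the promoters of the members themselves. A promoter was taken as the 250 bases before and 50 bases after each gene start in the RefSeq annotation of GRCm38.p6. It was present in 3 of the 9 promoters held for 7 members (33.3%), against 2349 of 32851 promoters of all genes (7.15%). The sites are shown because they lie in the partner MAX and in 2 antagonists, genes whose signal is described in turn further on. The capitals mark the E-box.
Max: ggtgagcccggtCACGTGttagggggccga
Mnt: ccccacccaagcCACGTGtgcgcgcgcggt
Mxd4: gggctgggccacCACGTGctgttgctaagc
The Max sequence lies at chr12:76962234-76962263 on the minus strand, and its E-box begins 3 bases before the annotated start and spans it. The Mnt sequence lies at chr11:74830789-74830818 on the plus strand, with the E-box beginning 123 bases before the start. The Mxd4 sequence lies at chr5:34187912-34187941 on the minus strand, with the E-box beginning 219 bases before the start. These letters did not occur in the windows of Mycn, Mxd1, Mxd3 or the 3 promoters of Mxi1, and no window was at hand for Myc. A match is a description of the sequence and was not tested for binding.

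Signals are given as quantile-normalized log2 intensities, and differences as Sox17ed/ed minus Sox17f/f on the same log2 scale. A gene was called when limma gave an unadjusted p under 0.01 and the fold was at least 1.4, the thresholds of the study's methods. By that rule 1857 of 14847 genes (12.5%) and 9.85% of single probes were called, 897 higher (6.04%) and 960 lower (6.47%) in Sox17ed/ed. An adjusted p under 0.05 alone was reached by 18.9% of genes and an unadjusted p under 0.05 alone by 33.9% (16.3% higher and 17.5% lower), and the median difference of all genes was -0.0016. Sox17 itself, the deleted gene, read 12.21, 12.07 and 12.22 in the Sox17f/f uteri and 9.75, 9.59 and 9.81 in the Sox17ed/ed uteri, a difference of -2.45 (SE 0.09, adjusted p = 2.66e-05, limma), and its second probe gave -2.97. All 6 arrays lay on 1 slide, the Sox17f/f arrays in one line of it and the Sox17ed/ed arrays in the other, so line and genotype cannot be told apart. Spots well above background were 60.7 to 65.7% of the non-control spots in Sox17f/f and 56.8 to 59.4% in Sox17ed/ed, and none was saturated.

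Of the 7 measurable members, 1, Mycn, was called, beside 12.5% of all genes. Whether a member was called is given throughout as a description of these arrays and not as a test, since the members were chosen with these values known. In 6 of the 7 the arrays of the genotypes did not overlap, 5 with Sox17ed/ed above and 1 below, beside 40.6% of all genes, 19.6% above and 21% below. The median difference of the 7 was 0.24. In whole uterus, fewer cells of a type and less RNA per cell cannot be told apart.

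**Figure D1:**
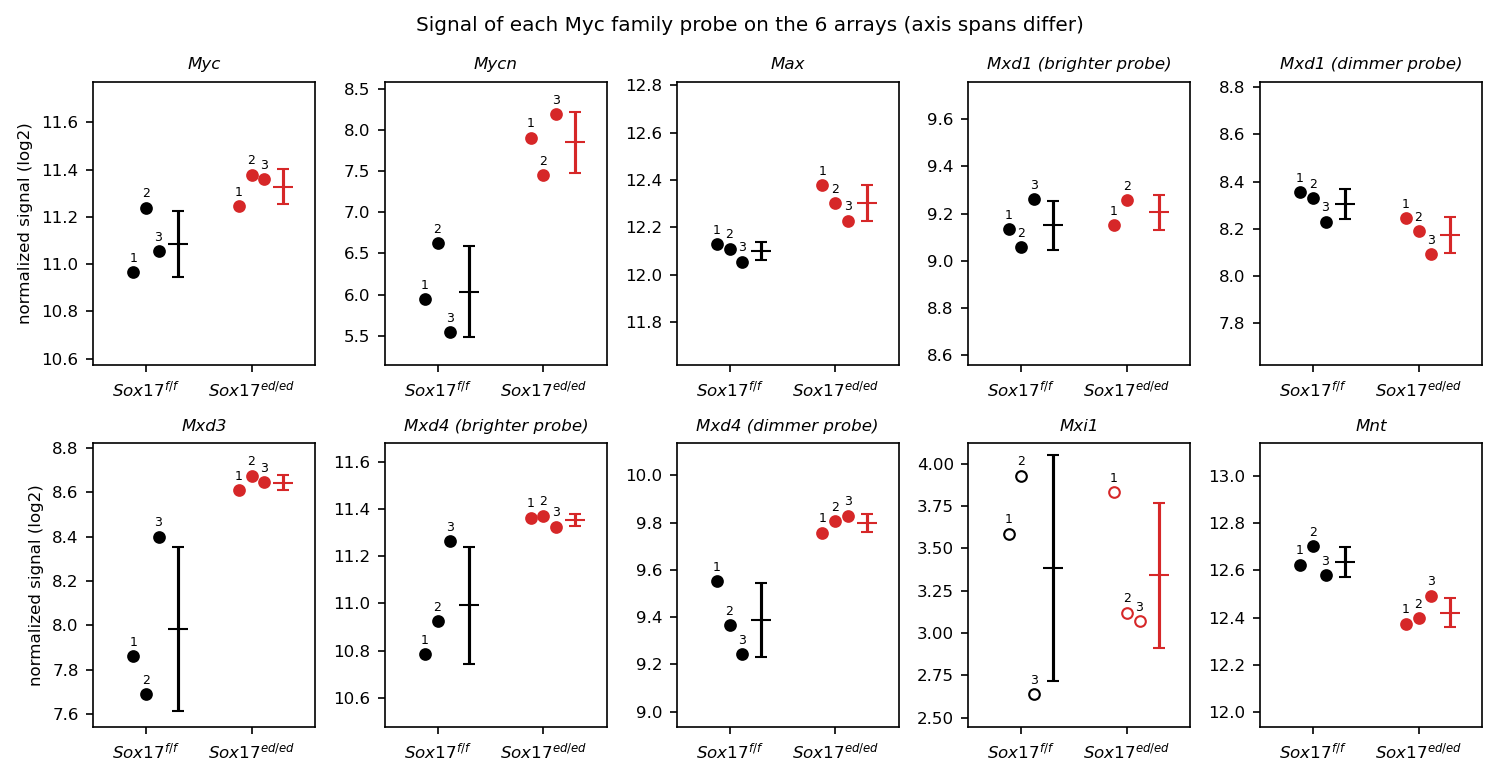
Normalized log2 signal (vertical axis, span differing by panel) of each of the 10 Myc family probes on the 6 arrays, black for Sox17f/f and red for Sox17ed/ed, with the replicate number above each point and the mean ± SD (n = 3; n = 2 for the brighter Mxd1 probe in Sox17ed/ed) beside the points. Mycn lies at 5.54 to 6.63 in Sox17f/f and at 7.45 to 8.19 in Sox17ed/ed; open circles mark Mxi1, well above background on 1 of the 6 arrays.

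Among the activators, Mycn, the paralog best known for its role in embryonic and progenitor tissues, had the largest difference of the family. Its probe read 5.94, 6.63 and 5.54 in the Sox17f/f uteri and 7.91, 7.45 and 8.19 in the Sox17ed/ed uteri. Every Sox17ed/ed array was above every Sox17f/f array, and the closest pair of arrays stood 0.83 apart. The means were 6.04 ± 0.55 and 7.85 ± 0.37 (SD, n = 3 each), and the difference was 1.81 (SE 0.31, 95% interval 1.06 to 2.57), a 3.51-fold higher signal in Sox17ed/ed. It ranked 197th of 14847 genes by increase. The probe was dim: its scanned intensity before normalization was 57.2, 100 and 53.4 in Sox17f/f and 241, 165 and 293 in Sox17ed/ed, and the lowest intensity counted as well above background was 13.1 to 18.0 across the arrays. With a normexp background correction, which adds an offset of 50 and draws dim signals together, the difference was 1.19. Mycn was called under all 15 other settings tried at the same thresholds, with differences of 1.19 to 2.09.

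Myc, the family's founding member, differed far less. Its probe, spotted 2 times on each array, read 10.97, 11.24 and 11.05 in Sox17f/f and 11.25, 11.38 and 11.36 in Sox17ed/ed. The genotypes were separate, but Sox17f/f replicate 2 and Sox17ed/ed replicate 1 were only 0.0059 apart. Means were 11.09 ± 0.14 and 11.33 ± 0.07, a difference of 0.24 (SE 0.09, 95% interval 0.02 to 0.46), or 1.18-fold. The upper end of that interval is below the 1.4-fold threshold, and Myc was called under none of the 15 other settings. Before normalization the scanned intensities of the genotypes overlapped, at 1934, 2561 and 2253 in Sox17f/f and 2422, 2482 and 2626 in Sox17ed/ed.

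Max, the obligate partner of both activators and antagonists, read 12.13, 12.11 and 12.06 in Sox17f/f and 12.38, 12.30 and 12.23 in Sox17ed/ed. The 3 Sox17ed/ed arrays were higher by at least 0.10, with little spread inside either genotype (SD 0.04 and 0.08). The difference was 0.20 (SE 0.07, 95% interval 0.04 to 0.37), or 1.15-fold, and Max was not called. Here too the intensities overlapped before normalization, at 4405 to 4731 in Sox17f/f and 4641 to 5214 in Sox17ed/ed.

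The antagonists did not move as a block. Mxd3, the MXD protein expressed in dividing rather than differentiated cells, read 7.86, 7.69 and 8.40 in Sox17f/f and 8.61, 8.67 and 8.65 in Sox17ed/ed. The Sox17ed/ed arrays lay within a narrow band (SD 0.03) above a wider Sox17f/f group (SD 0.37), whose replicate 3 came nearest. The difference was 0.66 (SE 0.18, 95% interval 0.22 to 1.10), or 1.58-fold, and Mxd3 was not called. It was called under 4 of 15 other settings: with normexp (0.51), with probes required above background on all 6 arrays or with an intensity trend in the variance (both 0.66), and without Sox17f/f replicate 3, where the difference was 0.87.

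Mxd4, a repressor found mostly in resting and differentiated cells, was measured by 2 probes for the same transcript. The brighter probe read 10.79, 10.93 and 11.26 in Sox17f/f and 11.36, 11.37 and 11.32 in Sox17ed/ed, a difference of 0.36 (SE 0.13, 95% interval 0.05 to 0.67). The dimmer probe read 9.55, 9.36 and 9.24 in Sox17f/f and 9.76, 9.81 and 9.83 in Sox17ed/ed, a difference of 0.41 (SE 0.10, 95% interval 0.17 to 0.65). Both probes placed all Sox17ed/ed arrays above all Sox17f/f arrays, yet they put the Sox17f/f replicates in opposite order, the brighter one with replicate 3 highest and the dimmer one with replicate 3 lowest. Neither probe was called. Without Sox17f/f replicate 3 the difference on the brighter probe was 0.50 and Mxd4 was called, which with Mycn and Mxd3 made 3 members.

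Mnt, the antagonist present in most cells whether dividing or not, was the 1 measurable gene of the family with all Sox17ed/ed arrays below all Sox17f/f arrays. It read 12.62, 12.70 and 12.58 in Sox17f/f and 12.38, 12.40 and 12.49 in Sox17ed/ed. The nearest arrays were 0.09 apart. The difference was -0.21 (SE 0.07, 95% interval -0.38 to -0.05), 1.16-fold lower in Sox17ed/ed and not called. Its intensities were also separate before normalization, at 6149, 7230 and 6546 against 5208, 4969 and 5700.

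Mxd1, an antagonist induced as cells leave the cycle and differentiate, overlapped between the genotypes on both of its probes. The brighter probe read 9.13, 9.06 and 9.26 in Sox17f/f and 9.15 and 9.26 in Sox17ed/ed replicates 1 and 2. The spot on Sox17ed/ed replicate 3 carried an outlier mark from the scanner software and was left out of the fit, which gave 0.05 (SE 0.09, 95% interval -0.19 to 0.29). Kept in, that spot read 10.06 and brought the difference to 0.33. On the dimmer probe the same array read 8.09, the lowest of the 6, the other values were 8.35, 8.33 and 8.23 in Sox17f/f and 8.24 and 8.19 in Sox17ed/ed, and the difference was -0.13 (95% interval -0.32 to 0.06). The high value of Sox17ed/ed replicate 3 was thus seen on 1 of the 2 probes.

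Mxi1, a close relative of MXD1 in sequence and function, gave no usable level. Its single probe was well above background on 1 of 3 Sox17f/f arrays and on 0 of 3 Sox17ed/ed arrays, with readings of 3.59, 3.93 and 2.64 and of 3.83, 3.12 and 3.07. The readings of the genotypes overlapped and no fold is given.

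**Figure D2:**
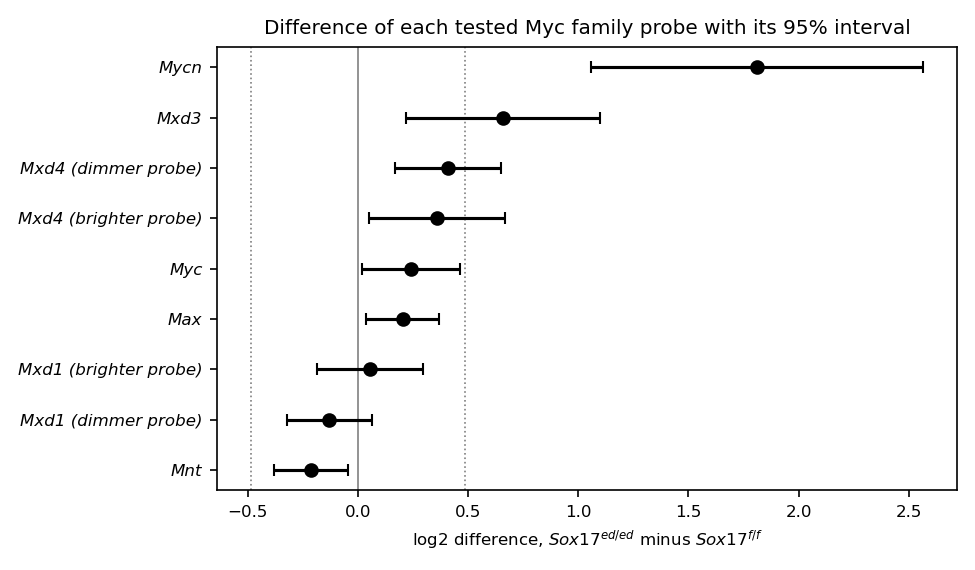
Difference in log2 signal, Sox17ed/ed minus Sox17f/f (horizontal axis), for the 9 measurable Myc family probes, with limma's 95% interval; the dotted lines mark a fold of 1.4 in each direction. Mycn stands at 1.81 with an interval of 1.06 to 2.57, and the other probes lie between -0.21 and 0.66.

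Set in order by difference, the members ran Mycn (1.81), Mxd3 (0.66), Mxd4 (0.36), Myc (0.24), Max (0.20), Mxd1 (0.05) and Mnt (-0.21). The 95% intervals of all neighbours in that order overlapped, those of Mycn and Mxd3 only at their ends. The plot of the differences with their intervals shows Mycn and Mxd3 past the 1.4-fold line and the rest inside it.

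Markers of cell division differed in the same direction as 6 of the 7 measurable members, Mxd3 and Mycn among them. All 6 measurable genes of the list (Mki67, Top2a, Ccnb1, Cdk1, Bub1 and Plk1) were higher in Sox17ed/ed, by 0.20 to 0.60 with a median of 0.51. None was called by limma. All 6 had an unadjusted p under 0.05, beside 33.9% of all genes (16.3% higher), and 0 had an adjusted p under 0.05. Aurkb was well above background on no array. Their summed linear signal was 11430, 8443 and 13910 in Sox17f/f and 16640, 15420 and 16400 in Sox17ed/ed. Within Sox17f/f the sum and Mxd3 followed the same order, replicate 2 lowest and replicate 3 highest, whereas Mycn had replicate 3 lowest and replicate 2 highest. Within Sox17ed/ed, Mxd3 ran in the reverse order of the sum, but over readings of only 8.61 to 8.67. Mycn was lowest there on the array where the sum was lowest, replicate 2. Epithelial markers did not move as one: of 8 genes, Krt19, Krt7, Krt8 and Cdh1 rose and Cldn3 fell (62.5% called, beside 12.5% of all genes). Elf3 (0.61), Epcam (0.10) and Krt18 (-0.16) were not called. The summed signal was 47380 to 49120 in Sox17f/f and 50460 to 62630 in Sox17ed/ed, with the largest rise in Krt19 (2.10). All 6 smooth muscle markers were lower in Sox17ed/ed (median -0.31, summed signal 469500 to 516600 against 341300 to 412200), with 1, Actg2, called, and all 6 endothelial markers were lower (median -0.34, 8647 to 8791 against 6763 to 7119) with none called. Stromal markers were mixed: the sum was lower (197400 to 206700 against 160300 to 179600) with Dcn at -0.42, while Hand2 (0.32) and Pdgfra (0.29) were higher, the median of 6 was -0.07 and none was called. Leukocyte markers were mixed as well: the sum was higher (14480 to 14740 against 16880 to 18510) with Csf1r at 0.41 and Itgam at 0.22, Ptprc (-0.06) and Adgre1 (-0.11) were lower, the median of 5 was 0.09 and none was called. Neutrophil and erythrocyte sums overlapped, and no gene of either list was called. The neutrophil sum was mostly Csf3r (0.02), with means of 15.46 in Sox17f/f and 15.48 in Sox17ed/ed. Retnlg was at 0.97, S100a8 at -0.41 and S100a9 at -0.46. Of the erythrocyte genes, Alas2 was at -1.03 and the others lay between -0.23 and 0.14. Of the squamous markers, Krt5 was well above background on 0 of 3 Sox17f/f and 3 of 3 Sox17ed/ed arrays. Its mean was at least 5.25-fold higher in Sox17ed/ed, but the arrays read 7.80, 4.94 and 5.33, so replicate 1 raised that mean. Trp63 (-0.12, the brighter of 2 probes), Krt14 (0.30) and Krt13 (0.06) were not called, and Ivl was not measurable. The summed signal overlapped between the genotypes. That sum was mostly Trp63, with means of 11.38 in Sox17f/f and 11.26 in Sox17ed/ed, where Krt14 had 5.31 and 5.60. By qRT-PCR, the study reported more Trp63 mRNA in Sox17ed/ed than in Sox17f/f uteri. The part of these cell populations in the values of the Myc family was not tested.

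**Figure D3:**
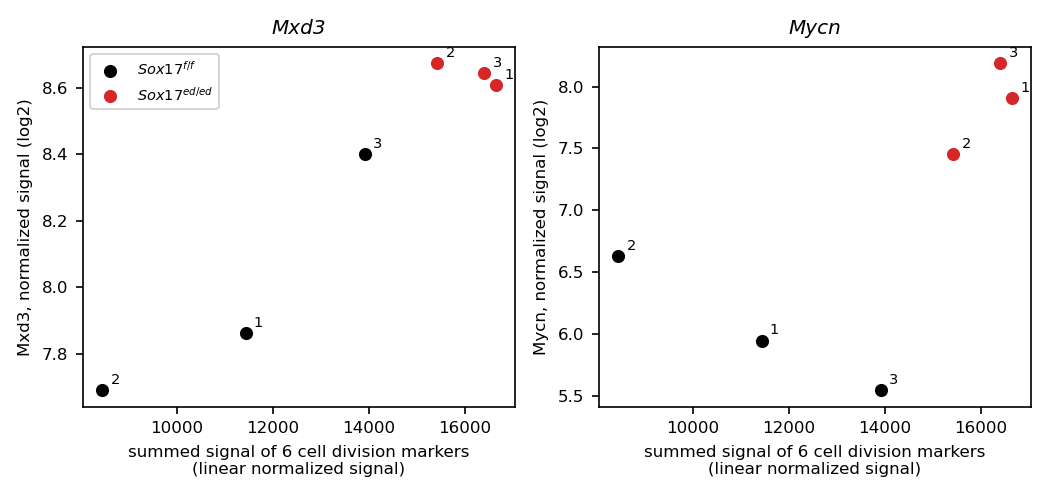
Normalized log2 signal of Mxd3 (left) and Mycn (right) on the vertical axis against the summed linear signal of 6 cell division markers on the horizontal axis, one point per array with its replicate number, black for Sox17f/f and red for Sox17ed/ed. Within Sox17f/f, Mxd3 follows the order of the sum (8443, 11430 and 13910) and Mycn runs in the opposite order. Within Sox17ed/ed, Mxd3 runs opposite to the sum, over readings of only 8.61 to 8.67, and Mycn is lowest on replicate 2, as the sum is.

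The genes whose signal over the 6 arrays was most like that of Mycn, by Pearson's r over all genes compared, were Elovl7 (r = 0.998), Sox7 (r = 0.997), 4933432I09Rik (r = 0.995) and Tagap (r = 0.994), and 225 genes had r above 0.95. For Myc they were Arrdc2 (r = 0.999), Ltb4r1 (r = 0.988), H2-Ob (r = 0.98) and Gins1 (r = 0.98), with 29 genes above 0.95. These r values rest on 6 arrays in 2 groups, so a shared difference between genotypes enters each of them.

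The rest of the MYC network was read from lists of genes named for their roles, which like the members were drawn up with earlier results of these data known. Relatives that pair with MAX or with MLX, a separate protein of the same kind, came first. Of 5, 4 were measurable and none was called by limma, with 1 at an unadjusted p under 0.05, beside 33.9% of all genes. Mlxipl and Mlxip, glucose-sensing partners of MLX, differed by 0.28 and -0.23 (adjusted p = 0.219 and 0.0766, limma), Mlx by -0.06 and Mga, a MAX-binding repressor, by 0.03. A second, dimmer Mlxip probe, well above background on 3 Sox17f/f and 2 Sox17ed/ed arrays, gave -0.85 and passed both thresholds of the call in the fit over single probes. Mycl, the third MYC paralog, was well above background on 1 of the 6 arrays.

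Genes whose proteins work with MYC on chromatin came next. None of the 16 measurable cofactors was called by limma, beside 12.5% of all genes, and 2 had an unadjusted p under 0.05, beside 33.9%. The median difference was 0.05 and the range -0.39 to 0.18. The furthest were Mycbp, a MYC-binding protein, at -0.39 and Ep400, a subunit of the TIP60 complex that MYC recruits, at -0.31 (adjusted p = 0.0966 and 0.0331, limma). Without Sox17ed/ed replicate 3, Mycbp was at -0.53 and was called. Zbtb17, through which MYC represses genes, was above background on no array.

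On the side of the antagonists, 1 of 14 corepressor genes (7.14%) was called, beside 12.5% of all genes. Rbbp7, a histone-binding subunit of SIN3 complexes, fell by 0.52 (SE 0.07, adjusted p = 0.00503, limma), with 14.46, 14.44 and 14.45 in Sox17f/f and 13.98, 13.82 and 14.00 in Sox17ed/ed. Its fold is near the threshold, and without Sox17ed/ed replicate 2 the difference was -0.46 and was not called. The second Rbbp7 probe gave -0.43 and was not called. Arid4b, another SIN3 subunit, was at -0.39 and was not called. Not all of the list fell: with an unadjusted p under 0.05 alone, 2 genes were higher and 3 lower, beside 16.3% and 17.5% of all genes. One of the higher genes, named after its value was seen, was Sap30 (0.33, adjusted p = 0.0167, limma), not called. The list median was -0.07.

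Genes that mark MYC protein for destruction or protect it were 12 measurable of 14, with 1 called (8.33%, beside 12.5% of all genes) and a median of 0.01. The call was Fbxw7, the ubiquitin ligase subunit that recognises phosphorylated MYC, at -0.83 (SE 0.18, adjusted p = 0.0351, limma), and it rested on 1 spot being left out. Its brighter probe read 9.28, 9.01 and 8.72 in Sox17f/f and 8.29 and 8.06 in Sox17ed/ed replicates 1 and 3, the marked spot of replicate 2 having been left out. With that spot kept the difference was 0.10, and the dimmer probe, measured on all 6 arrays, gave -0.23. It was also not called without Sox17f/f replicate 2 (-0.82), Sox17ed/ed replicate 1 (-0.94) or Sox17ed/ed replicate 3 (-0.72). Aurka, a mitotic kinase that stabilises MYCN protein, was at 0.49 and Mycbp2 at 0.43 (adjusted p = 0.194 and 0.0113, limma), neither called. Without Sox17f/f replicate 3, Aurka was at 0.70 and was called.

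Among 15 measurable regulators of Myc transcription, 2 fell and none rose by the call used here (13.3% called, beside 12.5% of all genes). At an unadjusted p under 0.05 alone 2 more were higher, Prdm1 (0.37, adjusted p = 0.0249, limma) and E2f1 (0.30, adjusted p = 0.0676, limma), named after their values were seen. Stat3, which carries LIF and IL6 signals and activates Myc in several cell types, fell by 1.05 (SE 0.07, adjusted p = 0.000191, limma), from 13.61, 13.53 and 13.58 to 12.46, 12.52 and 12.58. Klf4, a repressor or activator by context, fell by 0.59 (adjusted p = 0.0126, limma). The steroid receptors of the list, named here after their values were seen, were at -0.04 for Esr1 and 0.01 for Pgr. The other Esr1 probes gave -0.01 and -0.32 and the other Pgr probe 0.02, none called, and Pvt1, the non-coding neighbour of Myc, was at -0.01, or 0.11 on its other probe. The furthest uncalled genes were Tcf7l2 (0.50) and Foxm1 (0.38). Tcf7l2 was called without Sox17ed/ed replicate 3 (0.84) and Foxm1, a driver of mitotic genes, without Sox17f/f replicate 3 (0.54).

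No gene on the lists of textbook MYC-activated targets rose in Sox17ed/ed by limma's call, beside 6.04% of all genes. At an unadjusted p under 0.05 alone, 0 nucleolar genes were higher and 5 lower, and 3 metabolic or cell cycle genes were higher and 6 lower. Over all genes, 16.3% were higher and 17.5% lower at that threshold. Of 24 nucleolar and ribosome production genes, 20 had a difference below 0, beside 7461 of 14847 genes tested. The median was -0.14, none rose and 1 fell (4.17% called, beside 12.5% of all genes). That gene, the ribosome assembly factor Rrp12, fell by 0.63 (adjusted p = 0.0337, limma). Rrp12 was not called when any one array other than Sox17f/f replicate 3 was left out, with differences of -0.47 to -0.67, nor with normexp (-0.45). Nip7 (-0.37) and Bysl (-0.32), both ribosome assembly factors, were the furthest uncalled. Of 25 metabolic and cell cycle targets, none rose and 2 fell (8% called), with a median of -0.03. Hk2, which phosphorylates glucose at the entry to glycolysis, fell by 1.23 (SE 0.10, adjusted p = 0.000575, limma), from 9.43, 9.34 and 9.29 to 7.95, 8.28 and 8.16. Tfrc, the transferrin receptor, fell by 0.61 (adjusted p = 0.0451, limma), and was not called when any one array other than Sox17f/f replicate 3 was left out (-0.48 to -0.65). Its other probes gave -0.65 and -0.07. None of its probes, the brightest included, was called in the fit over single probes. The glutamine transporter Slc1a5 was at -0.47 and the replication helicase subunit Mcm5 at 0.40 (adjusted p = 0.031 and 0.0347, limma), neither called. Slc1a5 was called without Sox17f/f replicate 3 (-0.54) or Sox17ed/ed replicate 1 (-0.57). Odc1, the polyamine enzyme and classic E-box target, named after its value was seen, was at 0.19, with 0.38 and 0.25 on its other probes.

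Genes that MYC represses went both ways. Of 8, 2 rose and 2 fell, beside 6.04% of all genes called higher and 6.47% called lower, with a median of -0.05. With an unadjusted p under 0.05 alone, 3 were higher and 3 lower, beside 16.3% and 17.5% of all genes. Cdkn2b, the CDK4 and CDK6 inhibitor p15, rose by 1.35 (SE 0.26, adjusted p = 0.0172, limma), from 5.14, 6.20 and 5.59 to 7.16, 6.89 and 6.92. With normexp its difference was 0.74, still called. Txnip, an inhibitor of glucose uptake, rose by 0.61 (adjusted p = 0.0268, limma), and was not called without Sox17f/f replicate 2 (0.57), Sox17f/f replicate 3 (0.58), Sox17ed/ed replicate 1 (0.55) or Sox17ed/ed replicate 2 (0.52). Gadd45a, a stress and growth arrest gene, fell by 2.24 (SE 0.11, adjusted p = 9.06e-05, limma), with 10.05, 10.07 and 9.69 in Sox17f/f and 7.74, 7.66 and 7.70 in Sox17ed/ed. Ndrg1, a differentiation gene, fell by 0.70 (adjusted p = 0.00196, limma). The cell cycle inhibitors Cdkn1b (0.23) and Cdkn1c (-0.18) were not called, nor was Cdkn1a (-0.12), named after its value was seen.

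**Figure D4:**
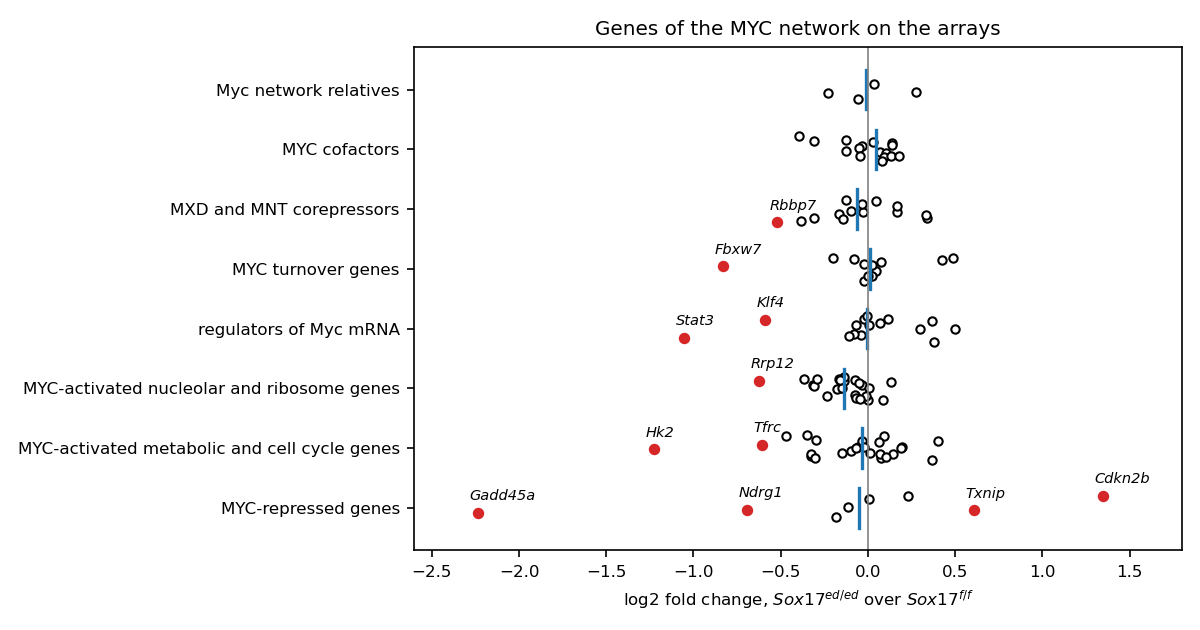
Log2 fold change, Sox17ed/ed over Sox17f/f (horizontal axis), of the genes in 8 lists of the MYC network, one point per gene; red points with names were called (unadjusted p under 0.01 and a fold of at least 1.4), open points were not, and the blue bar is the list's median. The medians lie between -0.14 and 0.05, and the called genes of the 2 lists of MYC-activated genes, Rrp12, Hk2 and Tfrc, all lie below 0.

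The share of promoters with a CACGTG in the same window was 30.8% for the metabolic and cell cycle targets (8 of 26 promoters, of 7 genes). It was 15.4% for the nucleolar genes (4 of 26) and 0 of 9 for the repressed genes, beside 7.15% of all promoters. Lists that are not targets gave 33.3% for the relatives (2 of 6), 13.3% for turnover genes and 11.8% for cofactors. Regulators of Myc gave 11.1% and corepressors 5.88%.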

How the data were processed

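RNA from whole uterus of 3 Sox17f/f and 3 Sox17ed/ed mice was hybridised by the authors to Agilent G3 mouse 8x60K arrays, and the deposited values are Cy3 intensity per spot from Feature Extraction (version 9.1 in the submitters' processing notes, 11.0.1.1 in the file headers). The deposited series table, used as an alternative, holds linear intensity values that lay within 0.191% of the scanner files' spot means. Each array held 62976 spots. Control spots and spots with outlier marks were left out, background-corrected processed signals were put on a log2 scale from the deposited intensities and quantile normalized, and spots of a probe were averaged. Probes were named through their RefSeq accessions (26582 of 55681 matched). A probe needed a signal well above background on 3 or more arrays, and the brightest probe stood for a gene. Genotypes were compared with limma 3.58.1 (lmFit and eBayes, R 4.3.3), with Benjamini-Hochberg adjustment over 14847 genes. Intervals are 95% from the same fit, and those of second probes from a fit over 32735 probes. Figures were drawn in Python 3.11.15 with matplotlib 3.10.9. The fit was tested on simulated data. With 3 arrays a genotype, their number limits the precision.

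The members and lists were chosen with earlier results of these data known. Genes named were the members, Sox17, all MAX and MLX relatives, up to 4 called genes per direction and the 2 furthest uncalled genes of each other list, and the 4 genes most like Myc and the member with the largest difference. One gene that this rule would name is not reported here. Alternatives were a 75th percentile shift, normexp (offset 50, on median signals and backgrounds), other filters, averaging of probes within a gene, the deposited table, an intensity trend, a replicate block, a fold of 2, leaving out each array and, chosen after seeing the data, keeping marked spots. Columns of per-sample values left unused numbered 0.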

Additional observations from a re-analysis of the deposited data

How the results depend on the processing

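Mycn kept its direction and its call under all 15 alternatives at the same thresholds (1.19 to 2.09), and Sox17 its fall (-2.50 to -2.39 with each array left out). Of the members, 2 were called with normexp, with probes above background on all 6 arrays and with the intensity trend, Mxd3 being the second. Leaving out each array gave 1 to 3 called members and 1584 to 1946 called genes, with 3 members without Sox17f/f replicate 3. At a fold of 2, 817 genes were called, and the lists kept 0 corepressors, 0 turnover genes, 1 regulator of Myc transcription, 0 nucleolar genes, 1 metabolic or cell cycle gene and 2 repressed genes. With the mean of a gene's probes, 1 relative (Mlxip, -0.54), 0 corepressors and 1 metabolic or cell cycle gene were called. Without the filter on low signal, 0 turnover genes and 1 metabolic or cell cycle gene were called; with probes above background on all 6 arrays, with the deposited values and with marked spots kept, 0 turnover genes; with normexp, 0 nucleolar genes. Leaving out each array gave 0 to 1 cofactors, 0 to 1 corepressors, 0 to 2 turnover genes, 0 to 1 nucleolar genes and 1 to 3 metabolic or cell cycle genes. Fbxw7 turned to 0.10 with the deposited values and 0.10 with marked spots kept, and Mga to -0.0069 with normexp. With each array left out, Mlx ranged from -0.16 to 0.027 (above 0 without Sox17ed/ed replicate 2) and Mga from -0.049 to 0.13 (below 0 without Sox17f/f replicate 1). Mxd1, not called at 0.05, was at -0.22 with the mean of a gene's probes (Sox17ed/ed replicate 3 then resting on the dimmer probe alone), -0.13 with probes above background on all 6 arrays and 0.33 with the deposited values or marked spots kept. The Fbxw7 turn comes from 1 marked spot, which those alternatives put back; the other causes were not tested.

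Deviations of same-numbered arrays from their genotype means correlated at 0.06, -0.11 and -9.5e-05. These values cannot tell whether the mice were paired, and the main fit used no pairing. With the replicate number as a block, 1796 genes and 1 member were called and 1 metabolic or cell cycle gene. Signal near background limits Mycn, whose fold shrinks under normexp, and leaves Mxi1 and Mycl without a value.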
